A study of Mus musculus with 132 samples.

Results

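The primitive endoderm genes Gata6, Gata4, Sox17, Sox7, Pdgfra, Dab2 and Foxa2 were followed in 132 single cells of mouse embryos, together with Nanog, a transcription factor of the epiblast. The 7 genes were taken by symbol and made up 7 of the 32245 genes in the deposited count table. A count in at least 3 cells was found for 5 of them. Sox7 had a single count in 1 cell, and Foxa2 had a count in 0 cells.

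Embryos of C57BL/6 x DBA F1 parents (C57BL/6NCrl and DBA/2NHsd in the study's methods) were collected at the 2-cell stage and cultured in the presence of a miR-381-3p mimic, a synthetic RNA that copies the miRNA, or of a scrambled control mimic at the same concentration. They gave 30 control and 24 mimic cells at the 8-cell stage and 39 control and 39 mimic cells at the 32-cell stage. These stages fell on embryonic days 2.5 and 3.5. Per the labels there were concentrations of 5 or 10 µM, with no record of which cell had which. The text of the study ties the higher one to the 8-cell and the lower one to the 32-cell embryos, so stage and dose cannot be told apart. Each group drew on 3 to 5 embryos, but the cells are not tied to embryos by any label. Each group was therefore treated as 1 sample, no test was run between groups, and the intervals below (95%, exact Poisson for levels and exact Clopper-Pearson for shares) cover counting error only. Smart-seq2 reads carry no molecular identifier, so several reads can stem from 1 molecule. Every group had received some synthetic RNA, since the controls carried the scrambled mimic.

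The cells held between 544866 and 3461022 counts (median 1260663). At these depths a gene without a count in a median cell could still be present at up to 2.31 to 2.55 CPM (the level of 3 counts, where CPM is counts per 1000000 counts outside the 13 mitochondrial genes). All 39 32-cell control cells had more counts of 4 Y-linked genes (Ddx3y, Eif2s3y, Kdm5d and Uty) than of Xist, and their Xist stayed at or below 74.7 CPM. Xist was at 249.9 CPM or more in every one of the 39 32-cell mimic cells, which had at most 1 Y-linked count each. Treatment and this difference cannot be told apart at the 32-cell stage. At the 8-cell stage, more Xist than Y-linked counts was found in 23 of the 30 control and 14 of the 24 mimic cells. The numbers in the cell titles form 8 runs of nearly consecutive numbers, each within 1 group, which are called A to H here, in number order within a group. Runs A (28 cells) and B (2 cells) are 8-cell control, C (24 cells) is 8-cell mimic, D (24 cells) and E (15 cells) are 32-cell control, and F (18 cells), G (12 cells) and H (9 cells) are 32-cell mimic. What a run stands for is not labelled.

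The primitive endoderm arises in the inner cell mass (ICM) of the blastocyst, beside the epiblast, while the outer cells form the trophectoderm (TE). Early ICM cells hold GATA6 and NANOG together, and FGF signalling then sorts them into GATA6-positive primitive endoderm and NANOG-positive epiblast. Along the primitive endoderm path GATA6 is followed by PDGFRA, SOX17, GATA4 and SOX7, and the mature layer gives rise to the yolk sac endoderm and its basement membrane.

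The agent that separates the groups is a copy of the mature miRNA, whose RefSeq sequence lies on chromosome 12 at chr12:109726870-109726891 (plus strand, GRCm38.p6). It is shown because the seed, bases 2 to 8 and in capitals, is the part that pairs with target transcripts.
mmu-miR-381-3p: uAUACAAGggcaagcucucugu
Sites matching this seed were searched on the sense strand of annotated 3′ UTRs (GENCODE M21, GRCm38) as CTTGTATA (8-base site), CTTGTAT (7 bases) and TTGTATA (7 bases), with the shorter sites counted only outside the 8-base site. None of these letters was found in any 3′ UTR annotated for a coding transcript of Gata6, Gata4, Sox17, Sox7, Pdgfra, Dab2, Foxa2 or Nanog. Among 20670 genes with an annotated 3′ UTR, 3.11% held the 8-base site and 21.4% held at least 1 of the 3 forms in the longest coding transcript. No match says only that these letters are not in these windows.

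Across the stages, the genes fell into unlike patterns rather than moving as a block. In control embryos Gata6 was at a similar pooled level at both stages, Gata4 was high at the 8-cell stage and close to 0 at the 32-cell stage, and Sox17, Pdgfra and Dab2 were higher at the 32-cell stage. A gene is called higher or lower here when its log2(CPM + 1) differed by at least 1. By that rule 3 of the 7 genes were higher and 1 was lower in 32-cell than in 8-cell control cells, against 24.9% of all 15917 genes with a count in at least 3 cells called higher and 20.4% called lower. In mimic embryos 2 were higher (Pdgfra and Dab2) and 1 lower (Gata4), against 27.2% and 17.9% of genes. The median difference of the 7 genes was 0.03 in control, beside 0.05 over all tested genes. That median is the value of Sox7, which is not a tested gene. The 5 tested members ran from −4.59 (Gata4) to 3.40 (Sox17).

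**Figure D1:**
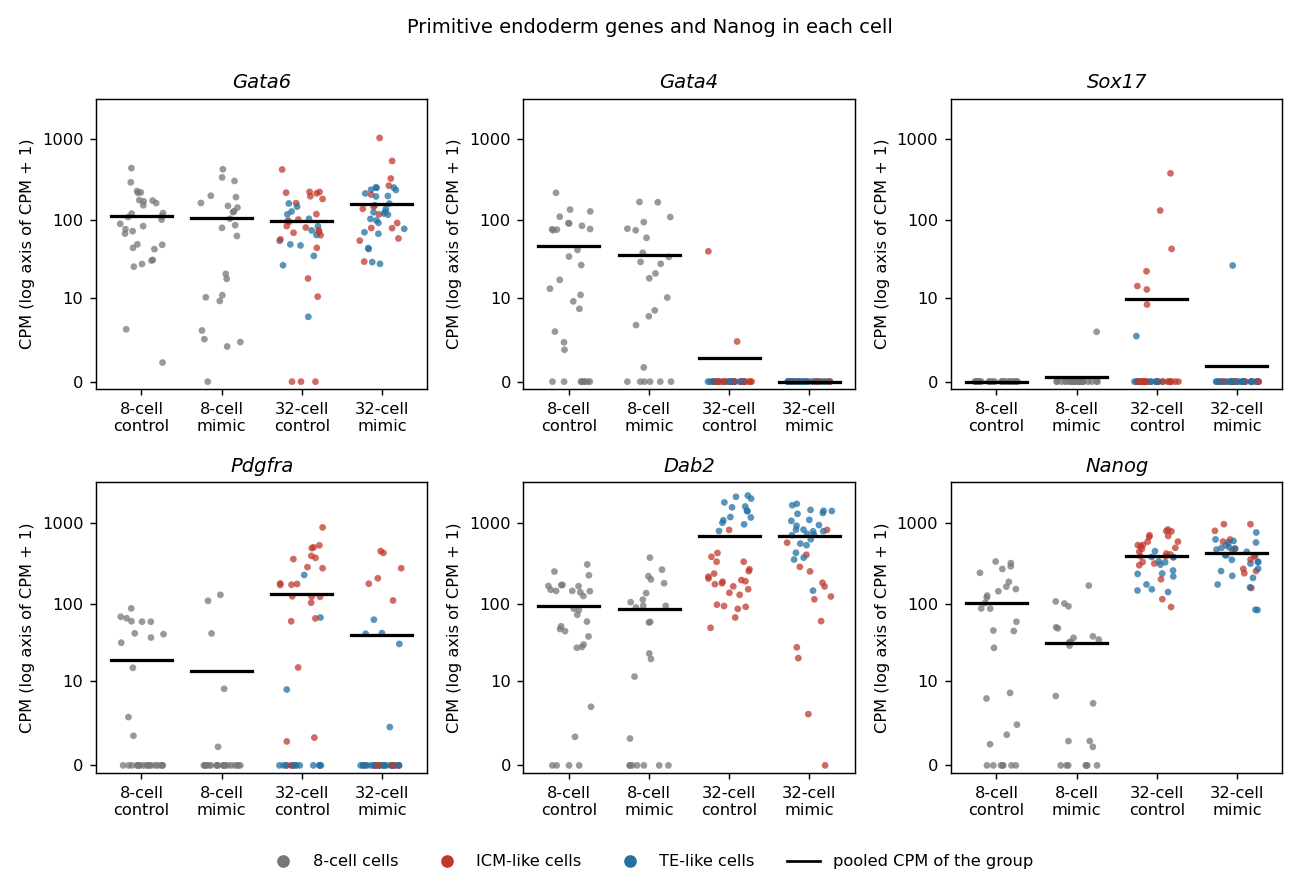
CPM of 5 of the 7 genes and Nanog in each cell, on a log axis of CPM + 1, by group, with 8-cell cells in grey, ICM-like cells in red and TE-like cells in blue and a black bar at the pooled CPM of the group. Gata4 is spread over the 8-cell groups and at 0 in 76 of 78 32-cell cells, while Sox17 is above 0 in 9 of 78 32-cell cells.

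Gata6 (chromosome 18, 11052064 to 11085635, plus strand) encodes the zinc-finger factor at the head of the primitive endoderm programme. It was the most widely detected of the transcription factors, with a count in 128 of 132 cells. In 8-cell control cells it ranged from 0.724 to 441 CPM with a median of 94.96, and in 8-cell mimic cells from 0 to 427 with a median of 82.6. In 32-cell control cells it ranged from 0 to 424 CPM with a median of 80.1, and in 32-cell mimic cells from 27.8 to 1044 with a median of 124. The 4 groups overlapped between 27.8 and 424 CPM, 2 32-cell mimic cells (541 and 1044 CPM) lay above every other cell, and no 32-cell mimic cell was as low as the 4 lowest 32-cell control cells, which had under 10 CPM.

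Pooled over cells, Gata6 stood at 113.1 CPM (109.6 to 116.5) in 8-cell control, 104.7 (101.1 to 108.4) in 8-cell mimic, 96.8 (94.3 to 99.4) in 32-cell control and 158.7 (155.4 to 162.1) in 32-cell mimic. In order, 32-cell mimic was highest, and the 8-cell control, 8-cell mimic and 32-cell control groups followed within 0.22 of each other on the log2 scale. The 32-cell mimic level was 1.64-fold that of control, a log2 difference of 0.71, which did not reach the threshold. Between runs, pooled Gata6 was 77.7 and 125 CPM in the control runs and 122, 186 and 175.9 CPM in the mimic runs, so the second control run and the first mimic run were at nearly the same level. Without run E the difference was 1.02, and without run D it was 0.34. Averaging log2(CPM + 1) over cells gave 1.09, so the side of the threshold is not settled. The cells of run B had 3.45 and 0.724 CPM, the lowest of that group, and without run A, which leaves only these, the log2 difference of 32-cell from 8-cell control was 4.97 in place of −0.22. An antisense transcript, 1010001N08Rik, overlaps exons of Gata6 and had 1284 counts in the table, and since Smart-seq2 does not mark strand, reads of the 2 cannot be told apart where they overlap.

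Gata4 (chromosome 14, 63198922 to 63271692, minus strand) encodes a related GATA factor that marks committed primitive endoderm. At the 8-cell stage it ranged from 0 to 218 CPM in control cells, with a median of 15.2, and from 0 to 167.4 in mimic cells, with a median of 19.5. A count was present in 22 of 30 control and 18 of 24 mimic cells. At the 32-cell stage 2 of 39 control cells had a count, at 40.1 and 2.14 CPM, and 0 of 39 mimic cells had one, which allows a pooled level of up to 0.0563 CPM.

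Pooled Gata4 was 46.9 CPM (44.7 to 49.1) in 8-cell control and 36.1 (34.05 to 38.3) in 8-cell mimic, which overlapped cell by cell and differed by 0.37 on the log2 scale. It was 0.984 CPM (0.744 to 1.28) in 32-cell control, 47.6-fold lower than in 8-cell control. In the mimic groups the 32-cell level was at least 641-fold lower than the 8-cell level. Both stage differences kept their call under every alternative listed in the closing section. Gata6 and Gata4 were both at 10 CPM or more in 16 of 30 8-cell control and 9 of 24 8-cell mimic cells.

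Gata4 was not the only gene with this early pattern. Among 28 other primitive endoderm genes, Foxa1, a forkhead factor, was at 37.6 CPM in 8-cell control and 30.2 CPM in 8-cell mimic cells, and had a count in 0 of 39 and 1 of 39 32-cell cells. Cited1, a transcriptional co-regulator, was at 413 and 394 CPM at the 8-cell stage and at 27.5 and 34.8 CPM at the 32-cell stage. GATA4 and GATA6 are also known from ovarian somatic cells. Of 6 markers of cumulus cells, Has2, Ptx3, Tnfaip6, Fshr and Foxl2 were at 0.0324 CPM or less in both 8-cell groups. Amhr2 was at 105.6 CPM in 8-cell control and 46.5 CPM in 8-cell mimic cells. Whether transcripts of such cells were carried over was not tested.

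Sox17 (chromosome 1, 4490931 to 4497354, minus strand) encodes a SOX-family factor needed for endoderm. It was the rarest of the genes called in the comparisons, with a count in 0 of 30 8-cell control cells and 1 of 24 8-cell mimic cells, at 3.14 CPM. At the 32-cell stage 8 of 39 control cells had a count. Their values were 2.66, 8.03, 12.9, 14.3, 22.3, 43.1, 131 and 380 CPM. Of 39 mimic cells, 1 had a count, at 26.5 CPM. All other 32-cell cells were at 0, so the groups overlap at 0 and the control group alone reaches above 26.5 CPM.

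Pooled Sox17 was 0 in 8-cell control, 0.129 CPM (0.0353 to 0.331) in 8-cell mimic, 9.58 CPM (8.79 to 10.4) in 32-cell control and 0.563 CPM (0.3802 to 0.804) in 32-cell mimic. The highest cell carried 61.9% of the summed control CPM. The 32-cell control level was at least 117.3-fold above 8-cell control and 17-fold above 32-cell mimic. Both differences rest on 1 run: 7 of the 8 control cells with a count were in run D, where pooled Sox17 was 15.5 CPM, and the other control run was at 0.787 CPM. Without run D, the log2 difference between the stages was 0.84 and that between mimic and control was −0.19, both under the threshold. Averaging log2(CPM + 1) over cells gave 0.98 for the stages in control and −0.86 for mimic less control.

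Sox7 (chromosome 14, 63943673 to 63950732, plus strand), a SOX factor of later primitive endoderm, had 1 count in 1 32-cell control cell (0.490 CPM). Foxa2 (chromosome 2, 148042877 to 148046969, minus strand), a forkhead factor of visceral endoderm, was not detected at this depth, which allows pooled levels of up to 0.0527 to 0.0971 CPM in the 4 groups.

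Pdgfra (chromosome 5, 75152292 to 75198215, plus strand) encodes the receptor for PDGF-A that is an early marker of primitive endoderm. In 8-cell cells it had a count in 13 of 30 control and 5 of 24 mimic cells, with medians of 0 and maxima of 87.1 and 129 CPM. In 32-cell control cells it ranged from 0 to 887 CPM with a median of 65.2, and 25 of 39 cells had a count. In 32-cell mimic cells it ranged from 0 to 451 CPM with a median of 0, and 11 of 39 cells had a count. Shares with a count were 64.1% (47.2 to 78.8) in control and 28.2% (15 to 44.9) in mimic.

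Pooled Pdgfra was 19.2 CPM (17.8 to 20.6), 13.98 (12.7 to 15.4), 132 (129 to 135) and 40.7 (38.99 to 42.4) in the 8-cell control, 8-cell mimic, 32-cell control and 32-cell mimic groups. The control level was 6.90-fold higher at the 32-cell than at the 8-cell stage, and the mimic level 2.91-fold higher. At the 32-cell stage mimic was 3.25-fold below control, a log2 difference of −1.68. The runs gave 174.3 and 69.5 CPM in control and 55.4, 31.1 and 32.2 CPM in mimic. Every control run was thus above every mimic run, and without run D the difference was −0.76, under the threshold. With 8-cell cells limited to those with more Xist than Y-linked counts, a check chosen after seeing the data, the stage difference in mimic was 0.90 in place of 1.48. With only the 3 8-cell mimic cells that had Xist and no Y-linked counts it was 5.07. Averaging log2(CPM + 1) over cells gave 0.86, under the threshold, and by that mean Gata6 was past it at 1.64.

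Dab2 (chromosome 15, 6299788 to 6440712, plus strand) encodes an endocytic adaptor of the LRP2 (megalin) receptor, used in primitive endoderm and also known in trophoblast. It ranged from 0 to 307 CPM in 8-cell control and from 0 to 374 in 8-cell mimic cells, with medians of 77.8 and 58.4. In 32-cell control cells it ranged from 49.7 to 2202 CPM with a median of 268, and in 32-cell mimic cells from 0 to 1740 with a median of 632. Pooled levels were 94.5 CPM (91.4 to 97.7), 86.4 (83.2 to 89.8), 699.6 (693 to 707) and 694 (687 to 702). The stage differences were 7.40-fold in control (2.87 on the scale of log2(CPM + 1), and 2.14 without run A, which leaves 2 8-cell cells) and 8.03-fold in mimic, and the 2 32-cell groups differed by 0.01 on the log2 scale, with a counting interval of −0.04 to 0.02.

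Levels of different genes were set side by side per kilobase of the longest coding transcript, a scale on which they can be ordered. In 8-cell control cells Gata6 led the 7 genes at 34.96 CPM per kilobase, followed by Dab2 at 20.3, Gata4 at 13.8 and Pdgfra at 2.80. In 32-cell control cells Dab2 led at 150.04 CPM per kilobase, followed by Gata6 at 29.9, Pdgfra at 19.3, Sox17 at 2.95 and Gata4 at 0.289. In run D alone, with 77.7 CPM of Gata6 and 174.3 CPM of Pdgfra, Pdgfra came before Gata6 on this scale. In 32-cell mimic cells Dab2, at 148.9, and Gata6, at 49.1, kept the first places, and Pdgfra stood at 5.95. Gata6 was thus the leading transcription factor of the set in all 4 groups.

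In 8-cell embryos, 0 of the 7 genes were called higher and 0 called lower in mimic than in control cells, against 10.6% and 11.5% of all tested genes. The log2 differences ran from −0.43 for Pdgfra to 0.18 for Sox17, and all 5 detected genes overlapped between the groups cell by cell. Averaging log2(CPM + 1) over cells put Pdgfra (−1.19) and Dab2 (−1.01) past the threshold. With only the 16 control and 3 mimic cells that had Xist and no Y-linked counts, Gata6 (−1.30), Gata4 (−1.64) and Pdgfra (−4.32) were past it. In 32-cell embryos, 0 were higher and 2 lower in mimic than in control, Sox17 and Pdgfra, against 11.9% of tested genes higher and 7.41% lower. The median over the 7 genes was −0.03, beside 0.03 over all tested genes. It is again the value of Sox7, and the 5 tested members ran from −2.76 (Sox17) to 0.71 (Gata6). Gata4, at −0.99, lay just inside the threshold and was decided by 1 control cell at 40.1 CPM.

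**Figure D2:**
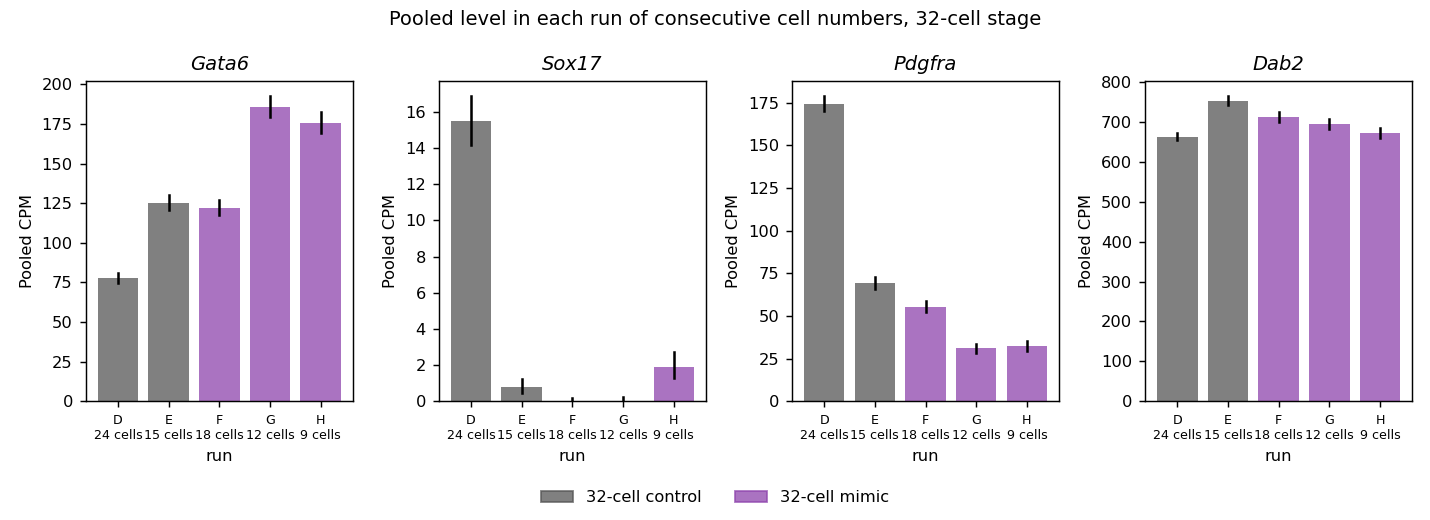
Pooled CPM of Gata6, Sox17, Pdgfra and Dab2 in runs D to H of the 32-cell stage, with control runs in grey, mimic runs in purple and lines for exact Poisson 95% intervals. Sox17 and Pdgfra are highest in run D, and Gata6 is lowest there.

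To ask in which cells of the blastocyst these genes were found, all 132 cells of both stages were clustered together. The 7 genes, Nanog, the marker genes and the lists used here were left out, and the 32-cell cells fell into 2 clusters. All 9 ICM markers (among them Sox2, Fgf4 and Esrrb) were higher in the first, called ICM-like, and all 9 TE markers (among them Cdx2, Gata3 and Krt8) in the other, called TE-like. ICM-like cells were 25 of 39 control cells (64.1%, 47.2 to 78.8) and 14 of 39 mimic cells (35.9%, 21.2 to 52.8). Clustering on all genes placed 25 and 13 cells there, and a marker score 25 and 18. Comparisons of whole 32-cell groups thus mix unlike shares of the 2 classes. The genes that led the ICM-like cluster by fold included Tbx15, Otx2 and Lifr, and those of the TE-like cluster Zfp185, Acer1 and Serpinb6b. The comparisons between classes are descriptions, since the cells were clustered on other genes of the same libraries.

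In control embryos 3 of the 7 genes were higher in ICM-like than in TE-like cells (Gata4, Sox17 and Pdgfra) and 1 was lower (Dab2), against 16.1% and 10.7% of all tested genes. In mimic embryos 1 was higher (Pdgfra) and 1 lower (Dab2), against 10.2% and 13.8%. Dab2 thus went with the TE-like class in both treatments, and its label as a primitive endoderm gene did not describe where most of its counts were.

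**Figure D3:**
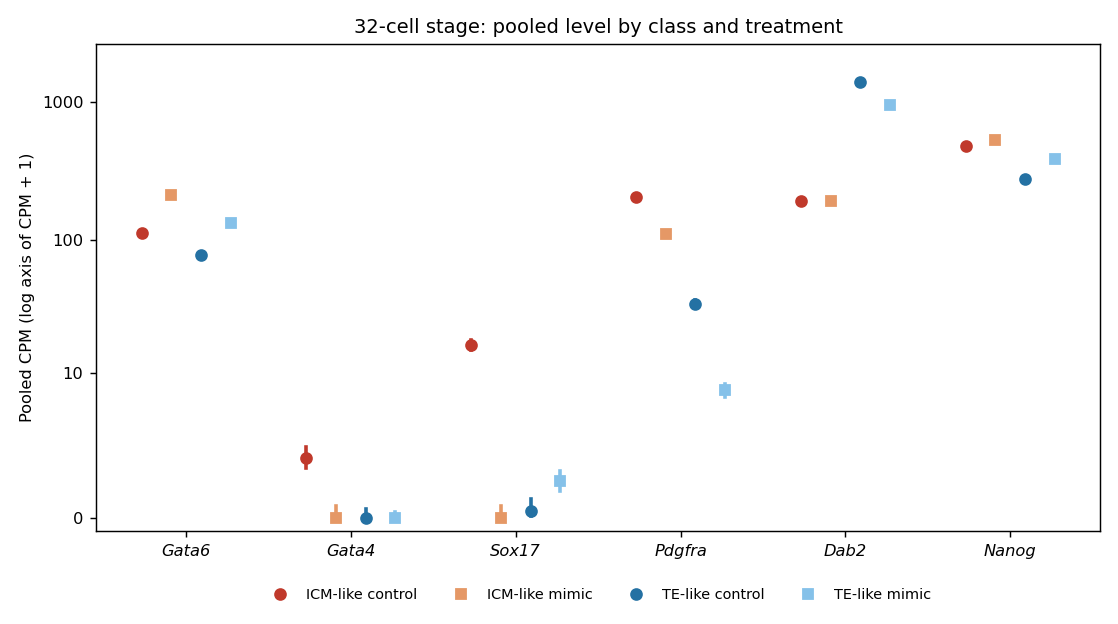
Pooled CPM of 5 of the 7 genes and Nanog at the 32-cell stage, on a log axis of CPM + 1, in ICM-like (reds) and TE-like (blues) cells of control (circles) and mimic (squares) embryos, with exact Poisson 95% intervals. Pdgfra is higher in ICM-like cells and Dab2 in TE-like cells in both treatments, and Sox17 stands well above 0 in ICM-like control cells.

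Dab2 in control embryos ranged from 49.7 to 825 CPM in ICM-like cells, with a median of 188, and from 800.4 to 2202 CPM in TE-like cells, with a median of 1418. The 2 classes overlapped in a single ICM-like cell, at 825 CPM. Pooled levels were 190.3 and 1381 CPM, 7.26-fold apart. In mimic embryos the ranges were 0 to 826 CPM and 145.2 to 1740 CPM, which overlapped more widely, and pooled levels were 190.6 and 939 CPM, 4.93-fold apart. TE-like mimic cells were 1.47-fold below TE-like control cells, a log2 difference of −0.56. TE-like cells were 14 of the control and 25 of the mimic cells. The near equality of the whole groups is thus not equality within TE-like cells.

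The genes whose pattern over the 78 32-cell cells was most like that of Dab2 included known TE genes. Among 9443 genes with at least 10 CPM in 10 or more of these cells, the 5 with the highest Spearman correlation to Dab2 were Krt18 (0.84), Ap2a2 (0.82), Gm2a (0.81), Akr1b8 (0.80) and Cldn4 (0.80). Its correlation was 0.79 with Krt8, 0.77 with Gata3 and −0.68 with Sox2. Lrp2, the receptor that DAB2 serves and a member of the list of other primitive endoderm genes, showed the same order of classes. It was at 202 CPM in ICM-like and 1408 CPM in TE-like control cells.

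Pdgfra had the opposite order. In control embryos 22 of 25 ICM-like cells had a count, with a median of 171.02 CPM and a maximum of 887, and 3 of 14 TE-like cells had one, with a median of 0 and a maximum of 228. Pooled levels were 206 and 34.02 CPM, 6.04-fold apart. A single TE-like cell carried 75.3% of the summed TE-like control CPM. In mimic embryos 6 of 14 ICM-like cells had a count, up to 451 CPM, and 5 of 25 TE-like cells, up to 62.9 CPM. Pooled levels were 109.3 and 7.31 CPM, 14.9-fold apart. The log2 difference of the classes in mimic, 3.73, was 2.70 without run F, 4.51 without run G and 2.47 as a mean of log2(CPM + 1) over cells. In control it was 2.56, and 6.02 without run D and 4.95 as that mean, so the order of the classes was the same and the size was not. The genes closest to it over the 78 cells included Id3 (0.58), Tdgf1 (0.58), Esrrb (0.54) and Deptor (0.53). Of these, only Id3 was among the 5 closest within control cells, and none was within mimic cells. The value for Gata6 was 0.00 over the 78 cells, 0.25 within control and −0.02 within mimic cells.

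Sox17 in control embryos had a count in 7 of 25 ICM-like and 1 of 14 TE-like cells (2.66 CPM). Pooled levels were 16.6 and 0.123 CPM, a log2 difference of 3.97, which was 1.29 without run D and 1.33 as a mean of log2(CPM + 1) over cells. In mimic embryos 0 of 14 ICM-like cells had a count, which allows a share of up to 23.2% and a pooled level of up to 0.172 CPM, and the single cell with a count was TE-like. The 7 ICM-like control cells with Sox17 all had Gata6, at 17.97 to 218 CPM, and all had Pdgfra, at 60.0 to 887 CPM. The 2 cells with the most Sox17 had 276 and 372 CPM of Pdgfra and 389 and 708 CPM of Nanog. Hnf4a, a nuclear receptor of endoderm, had a count in 2 of these 7 cells, at 3.43 and 72.3 CPM. It was not particular to them, since ICM-like control cells without Sox17 had up to 91.7 CPM.

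Gata6 had smaller differences between the classes. In control embryos it was at 111.1 CPM in ICM-like and 77.7 CPM in TE-like cells, and in mimic embryos at 211 and 133 CPM. The log2 differences, 0.51 and 0.66, did not reach the threshold, and averaging log2(CPM + 1) over cells, where 3 ICM-like control cells are at 0, turned the first to −0.14. Without run F the second was 1.19. Medians of the 2 mimic classes were 127 and 124 CPM, and 1 ICM-like cell at 1044 CPM carried 32.8% of the summed CPM of its class. The 5 genes closest to Gata6 were Golph3 (0.51), Rpl6 (0.51), Rpl9 (0.49), Prorsd1 (0.48) and Rpl32 (0.46). Of these, Rpl6, Rpl9 and Rpl32 encode ribosomal proteins. None of the 5 was among the 5 closest within control cells or within mimic cells alone.

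Gata4 was called higher in ICM-like control cells on the strength of 2 cells. The first had 40.1 CPM of Gata4 with 214 CPM of Gata6, 532 CPM of Pdgfra, 67.4 CPM of Hnf4a and 514 CPM of Nanog. The other had 2.14 CPM. Without run E, which includes both, Gata4 was at 0 in both classes.

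Within the classes, 0 of the 7 genes were higher and 2 were lower (Gata4 and Sox17) in ICM-like mimic than in ICM-like control cells, against 13.5% and 13.1% of tested genes. The Sox17 difference, −4.14, was −1.29 without run D. Gata6 was 1.90-fold higher, at a log2 difference of 0.92, and Pdgfra 1.88-fold lower, at −0.91. Between runs that difference of Gata6 went from 0.44 without run D to 1.42 without run F. That of Pdgfra went from −0.21 without run D to −1.37 without run F, so neither has a settled side of the threshold. Averaging log2(CPM + 1) over cells gave 1.34 for Gata6, −2.76 for Pdgfra and −1.10 for Dab2, which was at 0.00 when pooled. In TE-like cells 0 were higher and 1 was lower in mimic (Pdgfra), against 17.8% and 8.17%. That call rested on the highest control cell, at 228 CPM: without the highest cell of each group the difference was −0.14, and without run D it was 2.08, in the opposite direction.

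The overlap with Nanog (chromosome 6, 122707489 to 122714633, plus strand) was next examined in single cells. Nanog ranged from 0 to 335 CPM in 8-cell control cells, with a median of 52.5, and from 0 to 168.2 in 8-cell mimic cells, with a median of 17.8. In 32-cell cells it was present throughout, from 90.7 to 836 CPM in control and from 83.2 to 973 in mimic, with medians of 381 and 400.3. Pooled levels were 100.4 CPM (97.2 to 103.7), 32.2 (30.2 to 34.3), 391 (386 to 396) and 430.0 (424 to 436). At the 8-cell stage mimic was 3.12-fold below control, a log2 difference of −1.61. With the 23 control and 14 mimic cells that had more Xist than Y-linked counts it was −1.57, and without run A, which leaves 2 control cells, it was −0.91. With the 16 control and 3 mimic cells that had Xist and no Y-linked counts it was −0.82, so both of the last values miss the threshold.

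**Figure D4:**
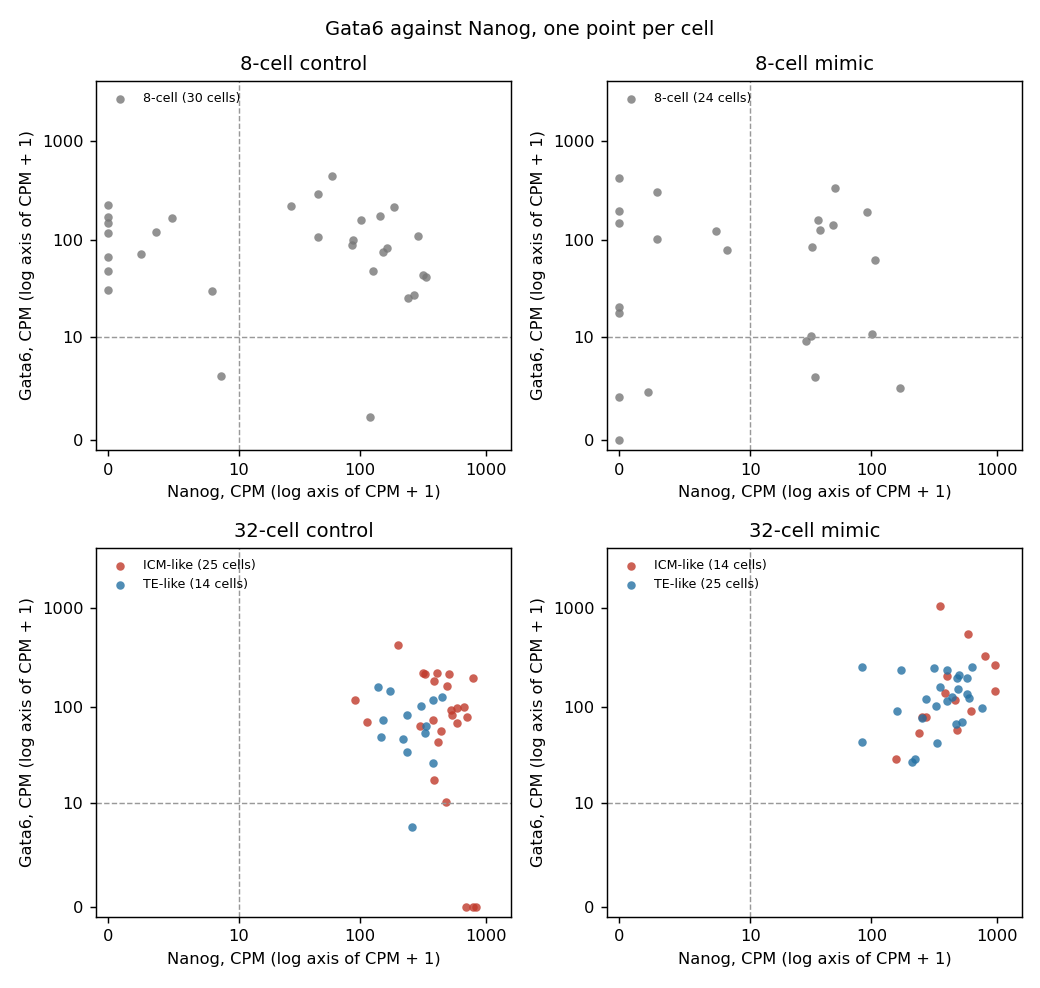
Gata6 against Nanog in each cell, with both axes on a log scale of CPM + 1 and dashed lines at 10 CPM, in 1 panel per group, coloured by class. At the 8-cell stage cells lie on both sides of both lines, and at the 32-cell stage all 78 cells are past 10 CPM of Nanog and 74 of 78 past 10 CPM of Gata6.

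At the 8-cell stage Gata6 and Nanog were found together in part of the cells. With 10 CPM as the limit, both were present in 17 of 30 control cells (56.7%, 37.4 to 74.5), Gata6 without Nanog in 11, Nanog without Gata6 in 1 and neither in 1. In mimic cells both were present in 9 of 24 (37.5%, 18.8 to 59.4), Gata6 alone in 9, Nanog alone in 3 and neither in 3. The intervals of the 2 shares overlap. Per kilobase of the longest coding transcript, Gata6 exceeded Nanog in 16 of 30 control and 17 of 24 mimic cells.

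At the 32-cell stage the overlap was close to complete. All 78 cells had 10 CPM or more of Nanog, so the shares with both are the shares with Gata6. Both were at 10 CPM or more in 35 of 39 control cells (89.7%, 75.8 to 97.1) and in 39 of 39 mimic cells (100%, 91.0 to 100). Per kilobase, Nanog exceeded Gata6 in 38 of 39 control and 37 of 39 mimic cells. In ICM-like cells the 2 were found together in 22 of 25 control cells (88%, 68.8 to 97.5) and 14 of 14 mimic cells (100%, 76.8 to 100). TE-like cells also had both, in 13 of 14 and 25 of 25 cells, so their joint presence did not separate the classes. The levels were less alike between treatments. The Spearman correlation of Gata6 with Nanog was −0.13 in control and 0.41 in mimic cells. It was −0.34 and 0.56 in ICM-like cells and −0.14 and 0.21 in TE-like cells. These differences were not tested.

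The 3 ICM-like control cells without a count of Gata6 were those with 695, 792 and 836 CPM of Nanog, against a median of 479.9 CPM in their class. Other ICM-like control cells with as much Nanog had Gata6: the cell at 799 CPM of Nanog had 197 CPM of Gata6, and that at 708 CPM had 80.1 CPM. The 3 cells without Gata6 were all in run D, and without that run the share with both was 100%. Of the 3, 2 had Pdgfra, at 175.7 and 502 CPM, and the third had none. No ICM-like cell of either treatment had Gata6 without Nanog.

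The other genes overlapped with Nanog wherever they were detected at the 32-cell stage, because Nanog was in every cell. Pdgfra and Nanog were both at 10 CPM or more in 20 of 25 ICM-like control and 6 of 14 ICM-like mimic cells. Gata6, Pdgfra and Nanog were together in 18 of 25 (72.0%, 50.6 to 87.9) and 6 of 14 (42.9%, 17.7 to 71.1), and with Sox17 as well in 6 of 25 (24%, 9.36 to 45.1) and 0 of 14 (up to 23.2%). Dab2 exceeded Nanog per kilobase in 14 of 14 TE-like and 1 of 25 ICM-like control cells, and in 14 of 25 and 1 of 14 mimic cells.

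The 28 other primitive endoderm genes, a list of receptors, transcription factors, endocytic receptors, basement membrane components and secreted proteins, were then compared in the same groups, and 24 of them had a count in at least 3 cells. From the 8-cell to the 32-cell stage in control, 14 of the 28 were higher and 4 lower, against 24.9% and 20.4% of all tested genes, with a median of 1.16 beside 0.05 over all tested genes. The higher ones included 8 of 9 basement membrane genes. Col4a1, a chain of type IV collagen, was at 3.48 CPM in 8-cell and 90.4 CPM in 32-cell control cells, and its partner Col4a2 at 0.599 and 26.2 CPM. Lrp2 was at 16.7 and 718 CPM. The lower ones were Foxa1, Cited1, Rhox5 and Srgn. In mimic embryos 10 were higher and 3 lower between the stages, against 27.2% and 17.9%, with a median of 0.64 beside 0.14.

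At the 32-cell stage 11 of the 28 were lower in mimic than in control and 1 was higher, against 7.41% and 11.9% of all tested genes, with a median of −0.66 beside 0.03 over all tested genes. The lower ones were Hnf4a, Cubn, Aqp8, Sparc, Lama1, Lamb1, Col4a1, Col4a2, Nid2, Serpinh1 and Apoa1, of which 7 belong to the 9 basement membrane genes. Hnf4a was at 6.73 CPM in control, with a count in 7 of 39 cells, and at 0.770 CPM in mimic, with a count in 1. Lama1, a laminin chain, was at 23.1 and 7.16 CPM (17 and 3 cells), and Apoa1, an apolipoprotein of the yolk sac, at 21.99 and 3.42 CPM (27 and 10 cells). Col4a2 was at 26.2 and 11.3 CPM. Without run D, a check chosen after seeing the data, 6 were lower, and without runs G or H in turn, 7 and 6 were. The count of 11 thus depends on the runs that enter.

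The 1 gene called higher was Rhox5, a homeobox gene on the X chromosome, at 0 counts in 39 control cells and 32.8 CPM in mimic, where 20 of 39 cells had a count. This was at least 622-fold higher. For this gene too, treatment and the difference in Xist cannot be told apart. Apoe, an apolipoprotein, stood at 239 CPM in control, against 285 CPM in mimic, and was not called.

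**Figure D5:**
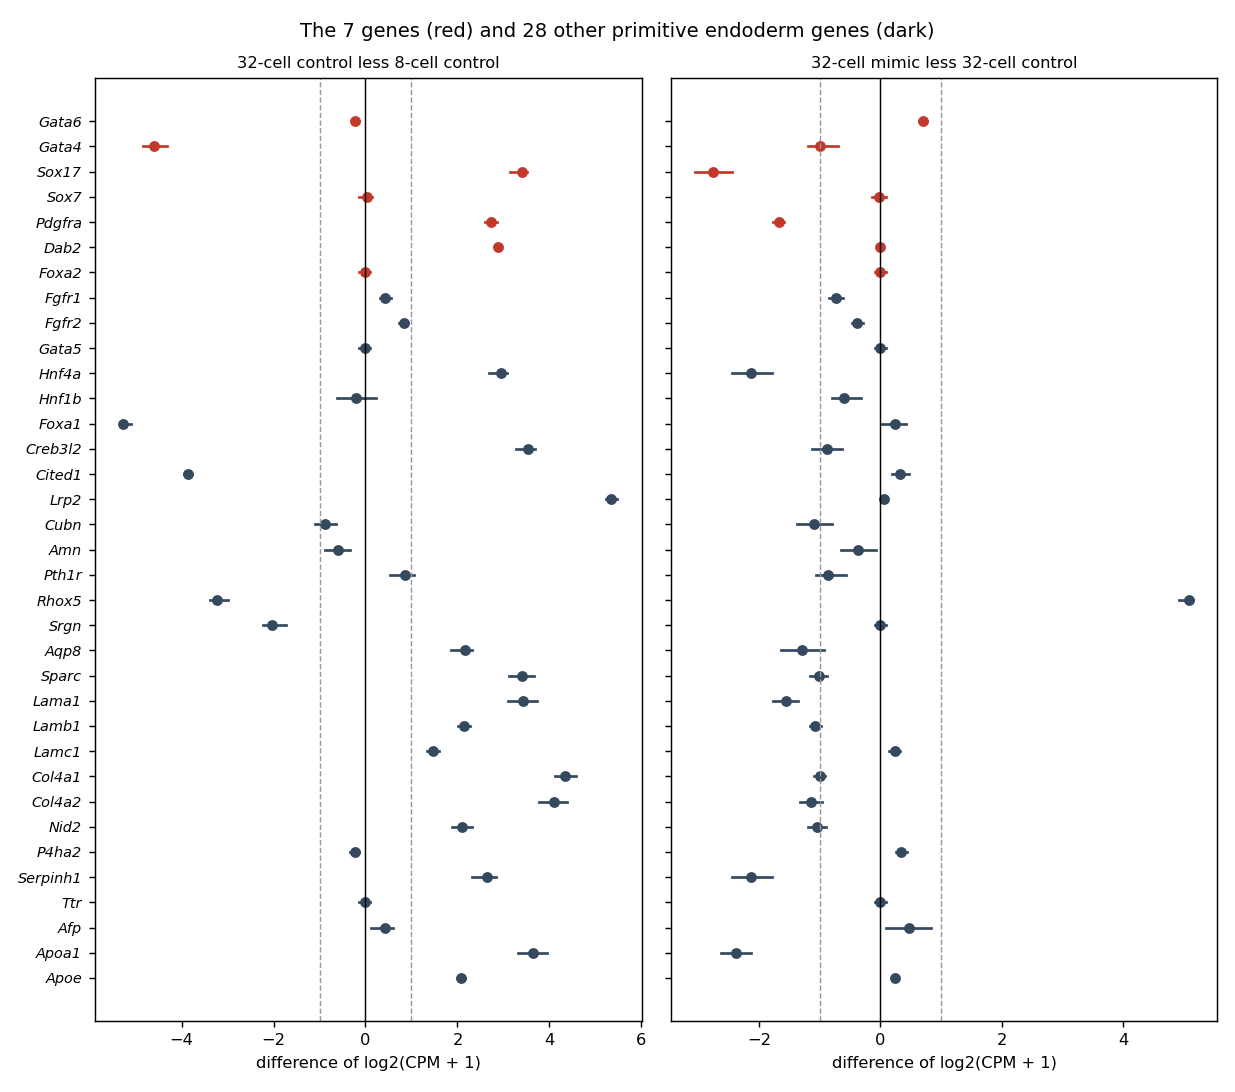
Differences of log2(CPM + 1) for the 7 genes (red) and 28 other primitive endoderm genes (dark), from 8-cell to 32-cell control on the left and from 32-cell control to 32-cell mimic on the right, with lines for counting intervals and dashed lines at −1 and 1. On the left Gata4, Foxa1 and Cited1 lie far below 0 and Lrp2, Col4a1 and Col4a2 far above it; on the right 11 of the 28 lie at −1 or below and Rhox5 above 1.

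Among ICM-like cells 10 of the 28 were lower and 1 higher in mimic than in control, against 13.1% and 13.5% of all tested genes. The 10 include Pth1r, which had a count in too few cells to be a tested gene. Among TE-like cells 4 were lower and 3 higher, against 8.17% and 17.8%. Sparc, a matrix protein of parietal endoderm, stood in the ICM-like class at 63.5 CPM in control embryos and at 15.1 CPM in mimic embryos. In control embryos 11 of the 28 were higher and 5 lower in ICM-like than in TE-like cells, against 16.1% and 10.7%. In mimic embryos 4 were higher and 5 lower, against 10.2% and 13.8%. Fgfr1, higher in both treatments, and Fgfr2, lower in control, were also ICM and TE markers used to name the classes. Their calls are thus not separate from the naming. The 11 include Pth1r too, which is not a tested gene. Nid2, a basement membrane linker, had the order of Dab2, at 5.93 CPM in ICM-like and 72.7 CPM in TE-like control cells. Lamb1, a laminin chain, had that of Pdgfra, at 157.3 and 34.1 CPM. In ICM-like cells, Fgfr1, the receptor for FGF4 in both ICM lineages, was at a pooled 80.7 CPM in control and a pooled 64.8 CPM in mimic.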

How the data were processed

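Full-length cDNA of single cells was sequenced with Smart-seq2, which carries no molecular identifiers. The authors deposited expected counts for each gene in each cell, without normalisation. Per the labels, the submitters' processing notes name FastQC, STAR (2.5.1b), RSEM (1.3.0) and the mm10 (GRCm38) genome. All values were whole numbers. The study's cell filter (at least 3000 genes and under 10% mitochondrial counts) removed 0 cells.

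Groups follow the stage and treatment labels. Counts were summed per group and divided by the total without 13 mitochondrial genes. Differences are of log2(CPM + 1), where the pseudocount of 1 shrinks those of low genes. Limits of 0 use 3 counts per group. No p-value was computed, since no label ties cells to embryos. Genes with a count in at least 3 cells form the background.

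All 132 cells were clustered together with Seurat (5.3.0) in R (4.3.3), and only 32-cell cells were given a class. The clustering used 2000 variable genes and 25 principal components at a resolution of 0.6. Doublets were not called, since cells were picked by hand. Beside the 7 genes and Nanog, the genes named are, for each list and comparison, up to 4 with the largest log2 difference among those at 20 CPM or more in either group, and the 5 with the highest Spearman correlation to a gene. Other list genes were named after their values were seen. 1 gene that this rule names is not reported here. The 7 genes and all lists were chosen with earlier results of these data known. Python (3.11.15), numpy (2.4.6), scipy (1.17.1) and pandas (2.3.3) gave the other values, and the scripts were tested on simulated data. Alternatives were other summaries, scalings (TMM from edgeR 4.0.16, median of ratios), pseudocounts, depths, classes, and leaving out each run or the highest cell.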

Additional observations from a re-analysis of the deposited data

Results flagged for a closer look

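The difference between mimic and control cells was itself compared between stages and between classes, and in 3 cases it was much unlike. None of these differences was tested, since each group is 1 sample. For Sox17, mimic less control was 0.18 at the 8-cell stage and −2.76 at the 32-cell stage on the scale of log2(CPM + 1), so the 32-cell value was lower by 2.93 (a difference of −2.93). Without run D the 32-cell value was −0.19, so most of that contrast rests on 1 run. Also for Sox17, mimic less control was −4.14 within the ICM-like class and 0.71 within the TE-like class, 4.85 apart. The first was −1.29 without run D, −2.93 without the highest cell of each group and −1.46 as a mean of log2(CPM + 1) over cells, and the latter rests on 1 mimic cell at 26.5 CPM. For Nanog, mimic less control was −1.61 at the 8-cell stage and 0.14 at the 32-cell stage, 1.75 apart, and the first was −0.91 without run A. Both stage comparisons also differ in dose, in title runs and in the Xist and Y-linked counts of the cells, and the part of these was not tested.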

How the results depend on the processing

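No paired analysis was possible because no test was run between groups and no label ties cells of different groups together. Of 279 values of comparisons under alternatives, 241 stayed within 1.5 times the reported count or within its error, and 38 did not. The cause was not tested, beyond the fewer cells that enter where some are left out. Where 8-cell cells had more Xist than Y-linked counts, an alternative chosen after seeing the data, 1 gene was higher at the 32-cell stage in mimic in place of 2, and 6 of the 28 other primitive endoderm genes were lower in 8-cell mimic in place of 2. With Xist and no Y-linked counts (16 control and 3 mimic cells), 3 of the 7 were lower in 8-cell mimic in place of 0. With the mean of log2(CPM + 1) over cells, 2 were lower in 8-cell mimic in place of 0, 1 was higher in 32-cell mimic in place of 0, 1 was lower there in place of 2, 1 was higher in ICM-like mimic in place of 0, and 0 were lower in TE-like mimic in place of 1. With a pseudocount of 0.1 CPM, 1 was higher in 8-cell mimic and 1 in TE-like mimic in place of 0, and 2 were lower in ICM-like cells of mimic embryos in place of 1. That last count was also 2 with the mean of per-cell CPM, thinned counts and classes from the marker score. With a pseudocount of 5 CPM, and without the highest cell of each gene and group, 1 was lower in ICM-like mimic in place of 2. Without that cell 0 were lower in TE-like mimic. Thinned counts gave 1 higher in ICM-like mimic in place of 0. Without run A, which leaves 2 control cells, 1 of the 7 was higher and 1 lower in 8-cell mimic, and of the 28, 5 were higher and 5 lower in place of 2 and 2. Without run B, 1 of the 28 was lower. Without run D, 1 of the 7 (Gata4) was lower in 32-cell mimic, 1 was higher and 0 lower in TE-like mimic (Pdgfra, 2.08, in the opposite direction), 2 of the 28 were higher and 6 lower in 32-cell mimic in place of 1 and 11, and the ICM-like control share with Gata6 and Nanog was 100% in place of 88%. Without run E, 1 was higher in 32-cell mimic and 1 in ICM-like mimic, Gata6 in each case. Without run F, 2 were higher and 2 lower in ICM-like cells of mimic embryos in place of 1 and 1, 1 was higher in ICM-like mimic and 1 in TE-like mimic. Without run G, that lower count was 2, and 7 of the 28 were lower in 32-cell mimic. Without run H, 6 of the 28 were. Depth limits the absence of Sox7 and Foxa2 to under 3 counts per group.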

Other observations

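Epiblast genes, a list of 12 that includes Nanog, were also compared. From the 8-cell to the 32-cell stage 5 of them were higher in both treatments (Nanog, Sox2, Gdf3, Tfcp2l1 and Zfp42), against 24.9% of all tested genes in control and 27.2% in mimic. In control 2 were lower (Klf2 and Tdgf1), against 20.4%, and in mimic 4 (Klf2, Esrrb, Tdgf1 and Prdm14), against 17.9%. The median was −0.09 in control and 0.43 in mimic. In 8-cell mimic 2 were lower than in control, Nanog and Klf4, and 0 were higher, against 11.5% and 10.6%. In 32-cell mimic 3 were lower (Klf4, Tdgf1 and Prdm14) and 1 was higher (Fgf4), against 7.41% and 11.9%. Tdgf1, a co-receptor of NODAL and among the genes most like Pdgfra over 32-cell cells, was pooled at 249 CPM in 32-cell control and at 11.9 CPM in 32-cell mimic.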
